A study of Mus musculus with 26 samples.

Results

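The domains described here were those of intermediate length that held 12 or more protein-coding genes in mouse embryonic stem cells (ESCs) in G1. A domain was the stretch from the end of 1 boundary interval to the start of the next on the same chromosome (mm10), and it was chosen where it measured 0.225 to 1.475 Mb and held the midpoints of at least 12 protein-coding genes of the RefSeq annotation. The rule took 384 of the 3495 domains, which is 384 of the 2875 domains in that length range. The members were chosen by measured values, the length between boundaries and the gene number, so both are given below as descriptions only. The boundaries came from Micro-C, a chromosome conformation assay that cuts chromatin with micrococcal nuclease and reads which fragments lie near each other. Cells were of the RAD21-dTAG line, derived from Bruce-4 ESCs of C57BL/6J background and grown in serum/2i/LIF, in which the cohesin subunit RAD21 carries a tag for induced degradation. The list of 3515 boundaries was made by the authors from the 6 ESC libraries that received 0.05% v/v DMSO, pooled. The other groups carried the same tag and were not analysed here: ESCs with 500 nM dTAG, which degrades RAD21 (6 libraries), ESCs with 20 µM A485, which blocks the catalytic activity of p300 and CBP (6 libraries), and epiblast-like cells with DMSO or 500 nM dTAG (4 libraries each). In some of the ESC libraries with dTAG or A485 the growth protocol mentions epiblast-like differentiation, whereas their labels name ESC as the cell type. Whether the line is 1 clone is not given in the sources used here. The list carries no expression value, so the cell type could not be checked against its markers. A pooled list has no replicate error, no comparison below was tested, and each interval beside a share covers counting error alone.

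In interphase, cohesin extrudes loops of chromatin until it meets CTCF or other barriers, and the stretches between such barriers appear in contact maps as topologically associating domains. Genes in mammals are spread very unevenly: some gene-rich stretches hold unrelated genes used in nearly every cell, whereas others hold tandem arrays, in which repeated duplication has left many copies of a gene side by side. Promoters of widely used genes usually lie in CpG islands, stretches that keep the CG dinucleotides most of the genome has lost, and promoters of tissue-restricted array genes usually do not.

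The sequences below show these contrasting promoter types at the edges of, or inside, the gene-rich domains. Each gives the 250 bases before the annotated start, read 5′ to 3′ on the gene's strand from RefSeq's GRCm38.p6 promoter table, with every CG dinucleotide in capitals. The first 5 belong to genes with an end in a boundary interval that flanks 1 of the 5 domains with most genes. Olfr543 encodes an odorant receptor beside the domain of 83 genes, Klk1 a serine protease beside the domain of 68, and Ndel1 a dynein regulator beside the domain of 66. Actg1 encodes cytoplasmic gamma-actin beside the domain of 58, and Eif1 a translation initiation factor beside the domain of 56.

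Olfr543, chr7:102477903-102478152, minus strand: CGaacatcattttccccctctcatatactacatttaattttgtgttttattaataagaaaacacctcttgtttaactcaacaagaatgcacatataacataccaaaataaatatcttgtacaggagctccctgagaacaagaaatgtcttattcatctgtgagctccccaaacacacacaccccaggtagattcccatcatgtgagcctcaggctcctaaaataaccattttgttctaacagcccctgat
Klk1, chr7:44225110-44225359, plus strand: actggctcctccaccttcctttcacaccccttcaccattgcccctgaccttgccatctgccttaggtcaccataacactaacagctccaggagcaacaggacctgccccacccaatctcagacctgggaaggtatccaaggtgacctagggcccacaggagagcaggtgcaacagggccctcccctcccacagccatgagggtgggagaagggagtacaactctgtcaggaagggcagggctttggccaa
Ndel1, chr11:68853136-68853385, minus strand: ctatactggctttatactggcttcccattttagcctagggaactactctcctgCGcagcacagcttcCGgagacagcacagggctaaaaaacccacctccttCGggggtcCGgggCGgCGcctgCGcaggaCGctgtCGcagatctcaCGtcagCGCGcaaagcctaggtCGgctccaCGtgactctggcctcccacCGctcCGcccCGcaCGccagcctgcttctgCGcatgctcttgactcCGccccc
Actg1, chr11:120348496-120348745, minus strand: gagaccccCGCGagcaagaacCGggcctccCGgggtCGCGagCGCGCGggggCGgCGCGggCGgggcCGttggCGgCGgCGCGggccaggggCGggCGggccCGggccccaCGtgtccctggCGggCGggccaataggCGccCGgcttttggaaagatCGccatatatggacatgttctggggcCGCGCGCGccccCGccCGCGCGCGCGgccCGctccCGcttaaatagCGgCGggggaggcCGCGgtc
Eif1, chr11:100319699-100319948, plus strand: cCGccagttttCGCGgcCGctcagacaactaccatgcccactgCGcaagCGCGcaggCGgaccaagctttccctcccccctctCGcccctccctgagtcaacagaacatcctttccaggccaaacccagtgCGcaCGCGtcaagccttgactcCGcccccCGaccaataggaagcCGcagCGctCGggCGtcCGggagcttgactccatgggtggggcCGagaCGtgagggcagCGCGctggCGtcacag

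The next 3 are from genes inside receptor and hair-protein arrays and were chosen after their values had been seen. Olfr547 encodes an odorant receptor, Krtap3-3 a keratin-associated protein of the hair shaft, and Vmn1r188 a pheromone receptor.

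Olfr547, chr7:102534499-102534748, plus strand: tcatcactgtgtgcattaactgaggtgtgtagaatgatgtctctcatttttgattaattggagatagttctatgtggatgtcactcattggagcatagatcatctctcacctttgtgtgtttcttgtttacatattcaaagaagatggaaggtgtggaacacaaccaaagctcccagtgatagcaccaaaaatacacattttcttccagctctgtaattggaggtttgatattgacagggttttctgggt
Krtap3-3, chr11:99550864-99551113, minus strand: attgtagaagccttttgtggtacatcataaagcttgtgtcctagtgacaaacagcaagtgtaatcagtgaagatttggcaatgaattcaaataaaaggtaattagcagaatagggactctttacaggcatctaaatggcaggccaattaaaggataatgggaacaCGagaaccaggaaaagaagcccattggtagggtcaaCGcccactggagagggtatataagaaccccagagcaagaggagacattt
Vmn1r188, chr13:22087628-22087877, plus strand: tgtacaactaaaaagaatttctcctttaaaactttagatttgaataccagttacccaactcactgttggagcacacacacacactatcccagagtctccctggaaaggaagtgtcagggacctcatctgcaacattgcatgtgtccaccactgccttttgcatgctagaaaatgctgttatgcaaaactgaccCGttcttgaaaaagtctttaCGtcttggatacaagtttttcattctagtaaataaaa

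Ndel1 had 20 CG dinucleotides in these 250 bases, Actg1 43 and Eif1 24. In contrast, Olfr543 had 1, Klk1 and Olfr547 had 0, and Krtap3-3 and Vmn1r188 had 2 each. The Klk1 window was poor in CG although 60% of its bases were G or C over the 300 bases of the table.

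The 384 gene-rich domains covered 292 Mb, 11.9% of the 2447 Mb in domains, and held 8019 of the 21521 located protein-coding genes, a share of 37.3%. Their median length was 0.725 Mb, with quartiles of 0.544 and 0.975 Mb, against 0.475 Mb for the 1744 domains of 2 to 11 genes in the same length range. The median gene number was 17, with quartiles of 14 and 24.25, and it reached 83. Their gene density was 2.74 per 100 kb, against 0.836 in domains of 2 to 11 genes. Long members held somewhat more genes than short ones (Spearman's rho 0.293 across the 384 domains, which are not independent). At the gene threshold, 45 domains held exactly 12 genes and 42 of the same length range held exactly 11. At the length limits, 2 members measured 0.225 Mb and 1 measured 1.475 Mb, whereas no domain of 0.2 Mb and 3 of 1.5 Mb held 12 or more genes. A further 52 domains with 12 or more genes were longer than 1.475 Mb, and 1 was shorter than 0.225 Mb.

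**Figure D1:**
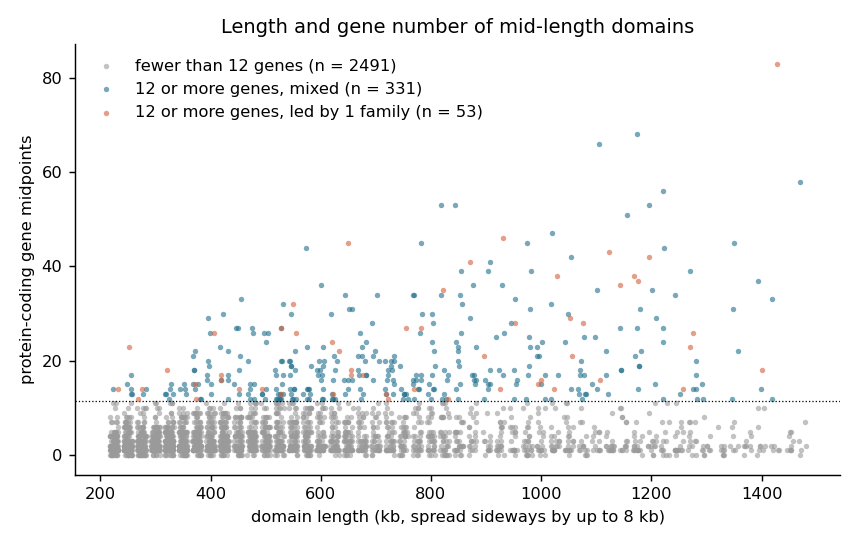
Gene number (vertical axis, protein-coding midpoints) against length (horizontal axis, kb) of each of the 2875 domains of 0.225 to 1.475 Mb. The 384 domains above the dotted line are those described here, 53 of them led by 1 gene family (orange) and 331 mixed (blue). Of these, 123 hold 12 to 14 genes, 153 hold 20 or more and 9 hold 50 or more.

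The domain with most genes, chr7:102500001-103925000, held 83, of which 74 were odorant receptor genes from Olfr547 to Olfr631. The beta-globin genes Hbb-bt, Hbb-bs, Hbb-bh2, Hbb-bh1 and Hbb-y lay in the same domain, a detail picked out after it had been seen. The next was chr7:44250001-45425000, with 68 genes from Acp4 to Lhb. It was of the opposite kind: its genes were mostly unrelated, and among them was Med25 of the Mediator complex. The domain chr11:68875001-69975000 held 66 genes, including Polr2a, the largest subunit of RNA polymerase II, Rpl26, and the translation factors Eif4a1 and Eif5a. The longest member, chr11:120350001-121825000, held 58 genes from Fscn2 to Metrnl, and chr11:100325001-101550000 held 56, including Kat2a, a histone acetyltransferase, and Stat3, the transcription factor that acts downstream of LIF. All 4 of these mixed domains had gene bodies over 63.6% to 74.3% of their length, whereas in the odorant receptor domain gene bodies covered 11.4%.

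The densest domain, chr18:37700001-37950000, held 23 genes at 9.20 per 100 kb. Of these, 12 belonged to the gamma-a protocadherins, adhesion proteins of neurons whose variable exons are annotated as overlapping genes that share an end, which raises their count. The others among the 5 densest held from 7.06 to 7.65 genes per 100 kb. One of them, chr17:34850001-35425000, had 44 genes of the major histocompatibility complex (MHC) region from Nelfe to H2-Q4, including the class I genes H2-D1, H2-Q1 and H2-Q2. Another, chr14:55500001-55950000, had 33 genes, including Psme1 and Psme2, subunits of a proteasome activator. The domain chr19:8725001-9125000 had 29 genes, including Polr2g of RNA polymerase II. The last, chr10:77525001-77950000, had 30 genes, many of them unnamed models next to Krtap12-1, Krtap10-4 and Krtap10-10. At 0.225 Mb the shortest were chr7:12825001-13050000, with 14 genes including 4 named Zfp, and chr7:103950001-104175000, with 14 genes of which 10 encode odorant receptors.

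**Figure D2:**
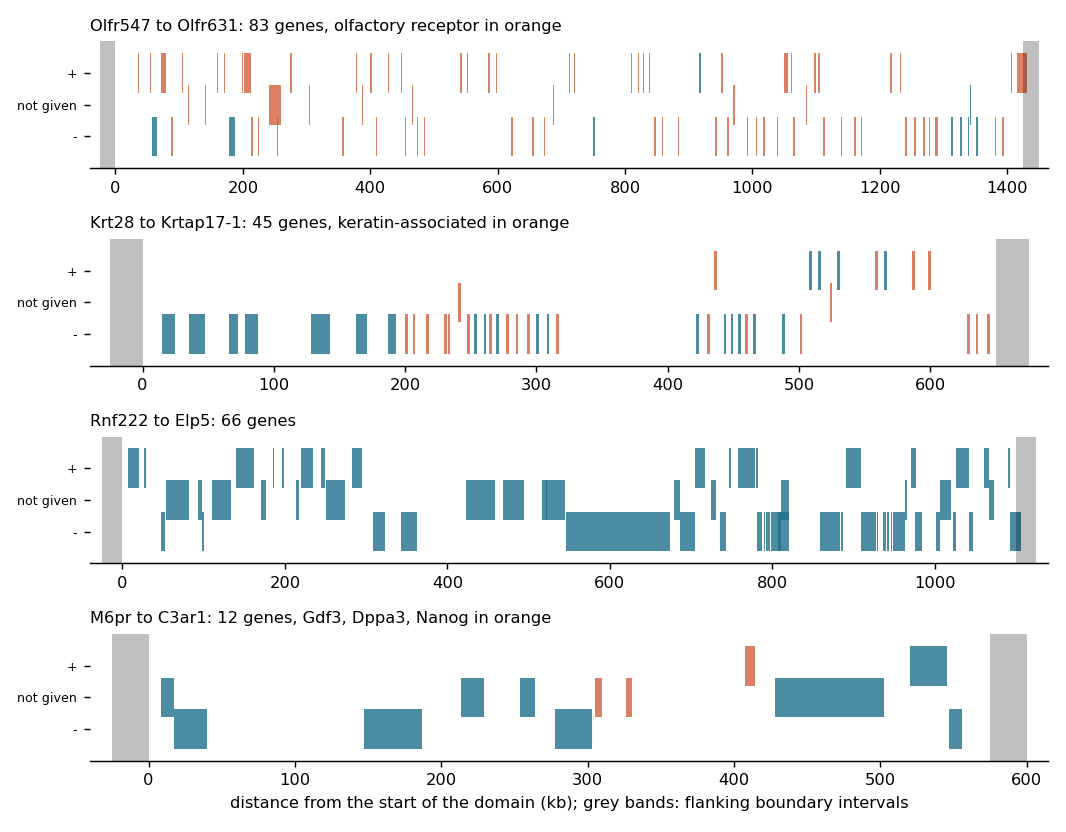
Protein-coding genes in 4 of the domains, by distance from the domain's start (kb), with genes on the plus strand above, on the minus strand below and genes with no strand in the promoter table between. Bars are gene bodies, drawn at least 2 kb wide, and grey bands are the 25 kb boundary intervals, each panel having its own scale. The 74 odorant receptor genes of the top panel are short and widely spaced, whereas the 66 genes of the Rnf222 to Elp5 domain fill most of its length.

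Tandem arrays made up a minority of the gene-rich domains. In 53 of the 384, or 13.8% (95% Wilson interval 10.7% to 17.6%), at least 50% of the genes shared the letters of their symbol before the first digit, called a stem here. Over all domains with 2 or more genes the share was 9.09%, and in those of 2 to 11 genes it was 7.40%. When the genes of a stem in a domain were counted as 1, only 0.709% of the domains that still reached 12 were led by a family, against 7.55% of those left with 2 to 11. A domain led by a family seldom reaches 12 once its copies count as 1, so this turn is largely set by the counting. Odorant receptors led 19 of the array domains, with 515 of their 595 genes. Vomeronasal receptors, which detect pheromones, led 7, with 120 of 140 genes, and cytochromes P450, oxidases of drugs and steroids, led 5, with 51 of 75. Keratins, Serpinb protease inhibitors and numbered zinc fingers led 2 each. A further 16 families led 1 domain each, among them the Rhox homeobox genes of the X chromosome (33 of 43 genes), the kallikrein proteases (25 of 26), the Lce proteins of the epidermal cornified envelope (21 of 27) and the trace amine receptors (15 of 18).

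In 7 domains every gene belonged to 1 family. Odorant receptors filled 4 of them: 46 genes in chr10:129025001-129950000, 38 in chr19:12825001-13850000, 28 in chr2:36275001-37350000 and 24 in chr16:58775001-59400000. The other 3 held 14 genes each. They were the type I keratins from Krt33b to Krt42 in chr11:100025001-100300000, the Serpinb genes in chr13:32875001-33900000 and the Cyp2c genes in chr19:38975001-40225000. The stem misses copies that carry provisional names: the interferon domain chr4:88350001-89125000 counted as mixed because 13 of its 34 genes were named Ifna and many others were unnamed models.

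At most edges of the array domains, the next gene outside was not of the family. Of the 106 sides of the 53 array domains, the next protein-coding gene outside the domain, which can lie in the boundary interval itself, was of another family on 79 and of the same family on 27. It was of the family on neither side in 33 domains, on 1 side in 13 and on both in 7. Relatives with another stem count as another family here, such as Krt33a next to the keratin-associated proteins or Sprr4 next to the Lce genes. Krt33a and Sprr4 also encode proteins of hair and skin. Likewise, Pcdhb1 lay next to the alpha protocadherins and Pcdhga1 next to the beta protocadherins. The Trim-led domain chr7:104200001-104625000 lay between the odorant receptor genes Olfr649 and Olfr657. The count was not made for other domains, so no share stands beside it. The Cyp2c domain had the family on neither side, with Hells, a chromatin remodeller, as the next gene on 1 side and Pdlim1 on the other. The odorant receptor domain on chromosome 2 lay likewise between Ptgs1, a cyclooxygenase, and Pdcl. The 36 vomeronasal receptor genes of chr13:22075001-23250000 lay between the histone gene H2bc11 and Zfp322a. Arrays with a family gene next on both sides included the odorant receptors of chromosomes 7 and 10, where Olfr545 and Olfr632, and Olfr763 and Olfr819, were the next genes outside. The kallikrein array reached into the boundary interval on 1 side, which held Klk1. A gene end lay inside or within 10 kb of the boundary on 93 of the 106 sides. It was an end of a family gene on 32 of these and of other genes only on 61. The median distance from the boundary to the nearest family gene of the domain was 45.5 kb.

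The gene lists compared with the 37.3% of all genes were not spread evenly over the gene-rich domains. Several tandem families lay almost entirely inside them: 56 of 57 clustered protocadherins, 25 of 26 kallikreins in a single domain, 50 of 53 keratins in 4 domains, 49 of 56 keratin-associated proteins and 53 of 63 serpins. The MHC genes followed with 24 of 35 (68.6%, interval 52.0% to 81.5%) and cytochromes P450 with 65 of 98 (66.3%, 56.5% to 74.9%). For odorant receptors the share was 609 of 1105 (55.1%, 52.2% to 58.0%). These families reach the minimum of 12 genes in part through their own copies. With the genes of a symbol stem in a domain counted as 1, the share was 0% for protocadherins and kallikreins, 18.9% for keratins, 7.94% for serpins, 13.3% for cytochromes P450 and 5.61% for odorant receptors, against 28.3% of all genes. In contrast, keratin-associated proteins stayed at 87.5% and MHC genes were at 45.7%, both still above the share of all genes. However, unnamed models beside the keratin-associated proteins carry no stem and were not merged, which keeps their domains at 12 or more. The stem Krtap covered 20 of 53 genes in chr16:88650001-89500000 and 23 of 45 in chr11:99350001-100000000. The numbered zinc fingers, many of them KRAB repressors, stood at 186 of 397 (46.9%, 42.0% to 51.8%), spread over 81 domains. Vomeronasal receptors were at the share of all genes, with 131 of 350 (37.4%, 32.5% to 42.6%). Without chromosome 7 their share was 64.9% of 174, against 36.3% of all genes. Of the defensins, antimicrobial peptides, 12 of 71 were in these domains (16.9%, 9.94% to 27.3%). Of the chemokines, which attract leukocytes, 16 of 38 were (42.1%, 27.9% to 57.8%). Of the Hox genes, which pattern the body axis, 8 of 39 were, all of them Hoxb1 to Hoxb8 genes in chr11:96275001-97200000. Of the replication-dependent histone genes 19 of 63 were, in 2 domains (30.2%, 20.2% to 42.4%). A cluster in a domain of fewer than 12 genes, in one outside the length range or in a boundary interval is not counted.

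Genes for the basic machinery of the cell were scattered singly over many gene-rich domains. The 32 cytoplasmic ribosomal protein genes inside them (of 84, 38.1%) lay in 29 domains, and the 39 mitochondrial ribosomal protein genes (of 78, 50.0%, interval 39.2% to 60.8%) lay in 38. Proteasome subunits had 19 of 39 genes there, in 17 domains, and translation initiation factors 27 of 55, in 25 domains. For the respiratory chain the count was 33 of 82 (40.2%), for Mediator and RNA polymerase subunits 24 of 57 (42.1%) and for tRNA synthetases 12 of 34 (35.3%). Except for mitochondrial ribosomal proteins, each of these intervals included the share of all genes. Across the 27 lists, 18 were above that share. Several of the lists just named crossed it when the rule for the domains was changed, and the values are given with the processing limits.

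**Figure D3:**
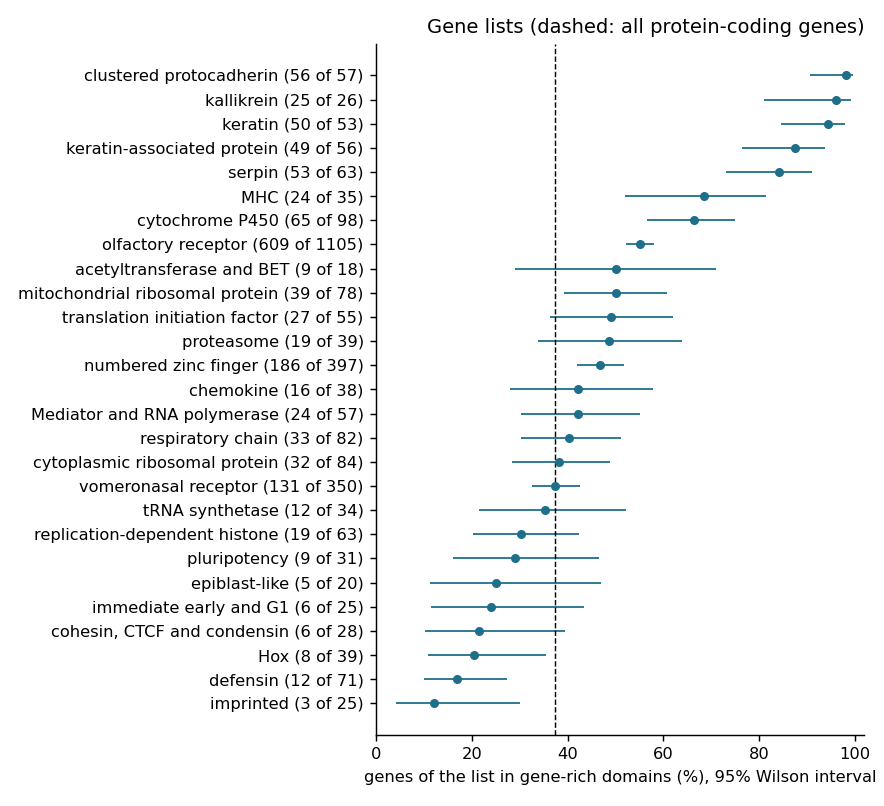
Share of each of the 27 gene lists whose midpoints lie in gene-rich domains of 0.225 to 1.475 Mb (horizontal axis, %), with 95% Wilson intervals for counting error. The dashed line is the 37.3% of all located protein-coding genes, and the protocadherin, kallikrein, keratin, keratin-associated protein and serpin lists lie farthest above it, at 84.1% to 98.3%.

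Of the 31 pluripotency genes, 9 lay in gene-rich domains (29.0%, interval 16.1% to 46.6%). Nanog, a homeobox factor of the naive state, shared chr6:122300001-122875000 with Gdf3 and Dppa3. That domain had exactly 12 genes and so only just met the rule. Pou5f1, which encodes OCT4, lay in chr17:35450001-35900000 among 21 genes of the MHC region, 58.4 kb from the nearer edge. Klf2 was in a domain of 17 genes, chr8:72075001-72600000. Utf1 was in a domain of 13 genes and only 250 kb, chr7:139900001-140150000. Tdgf1, a co-receptor of NODAL, was among 31 genes in chr9:110125001-111300000, and Tet1, a 5-methylcytosine oxidase, among 12 in chr10:62825001-63400000. The Tet1 domain also only just met the rule, and the Tet1 gene crosses its edge. Stat3 has been described above. The other pluripotency genes lay outside, including Sox2, which was the only gene midpoint in its 175 kb domain, Klf4 in a domain of 2 genes and Esrrb in another of 2. Lefty1, Lefty2, Lin28a and Dppa5a were in domains of 11 genes, just below the rule. The share of the list depended on that cutoff. It was 41.9% at a minimum of 10 genes, against 42.3% of all genes, and 12.9% at 15, against 29.9%. For genes wholly inside a domain the share of the list was 22.6%, against 34.7%. Of the 20 epiblast-like genes, 5 lay in gene-rich domains: Dnmt3b, a de novo DNA methyltransferase, Etv4, Sall2, Wnt8a and Fgf8. Dnmt3b was the last gene of its domain, chr2:152900001-153675000, and its midpoint lay 6.43 kb from the boundary. Fgf8 lay 10.3 kb from the edge of chr19:44925001-45750000. Imprinted genes, expressed from 1 parental allele, were the list with the lowest share, with Mest, Zim1 and Igf2r as 3 of 25 (12%, interval 4.17% to 30.0%). Of the immediate early and G1 genes 6 of 25 were inside (24.0%, 11.5% to 43.4%), namely Jund, Junb, Cdk2, Ier3, Egr1 and Fosl1.

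Genes for genome folding and for histone acetylation, the machinery the treatments of this study act on, were counted as well. Of 28 genes for cohesin, CTCF, condensin and their partners, 6 lay in gene-rich domains (21.4%, interval 10.2% to 39.5%). Ctcf itself was among 45 genes in chr8:105325001-106675000. Mau2, part of the cohesin loader, was among 31, Ncapd2 of condensin among 30, and Ncaph2 among 36. Cdca5, which encodes the cohesin stabiliser sororin, was among 27 and the cohesin subunit gene Smc1a among 14. Rad21, the tagged gene, was in a domain of 4 genes. Of the 18 genes for acetyltransferases and bromodomain proteins, 9 were in gene-rich domains, each in a different one (50.0%, interval 29.0% to 71.0%). Ep300 and Crebbp, which encode the targets of A485, were each in a domain of 17 genes, chr15:81425001-82025000 and chr16:3825001-4650000. Kat8, Kat6a, Kat2a, Kat5, Brd1, Brd2 and Brd8 were the others, in domains of 14 to 56 genes. Both intervals include the share of all genes.

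Genes in these domains were short. Their median length was 10.7 kb, against 30.3 kb in domains of 2 to 11 genes, and 2.87% of them exceeded 100 kb against 17.7%. A domain of limited length has room for many genes only if most are short, so this difference is partly set by the rule. The array domains were at the low end, with a median gene length of 1.46 kb, and mixed domains were at 12.7 kb. Odorant receptor genes in the domains had a median annotated length of 0.948 kb, about that of a coding exon alone, so for these genes the annotated start may not be the place where transcription begins.

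Promoter composition split the array domains from the mixed ones. The measure was the number of CG dinucleotides over that predicted from the C and G content of the 300 bases from 250 before to 50 after the start. It was available for 6594 genes of the gene-rich domains and for 80.3% of all located protein-coding genes. The median was 0.121 (interval 0.111 to 0.130) for 1063 promoters of array domains and 0.640 (0.629 to 0.654) for 5531 of mixed domains, against 0.662 in domains of 2 to 11 genes. The share of promoters at 0.6 or more was 4.99% in array domains and 53.9% in mixed ones. It was 55.4% in domains of 2 to 11 genes and 49.0% over all genes. Low values were not limited to genes of receptor length: the 475 promoters of array-domain genes longer than 2 kb had a median of 0.166. Whole domains differed in the same way. None of the 50 array domains with values had a median of 0.6 or more, and the highest, led by zinc fingers, was at 0.525, whereas 202 of 324 mixed domains did. Some mixed domains were as poor in CG as the arrays, with 37 of 324 below 0.3 against 47 of 50. The direction between mixed domains and those of 2 to 11 genes turned, to 0.667 against 0.582, when genes of a stem were counted as 1. That counting puts many array domains, which are poor in CG, among those of 2 to 11 genes, so the comparison group changed too.

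**Figure D4:**
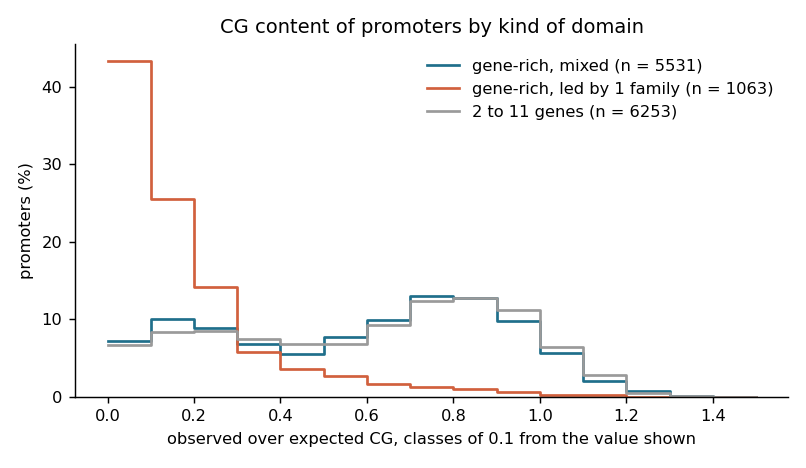
Distribution of promoters (vertical axis, %) over classes of observed over expected CG (horizontal axis) for mixed gene-rich domains (5531 promoters), array domains led by 1 family (1063) and domains of 2 to 11 genes (6253). The mixed domains follow the domains of 2 to 11 genes, with medians of 0.640 and 0.662, whereas array promoters crowd at the low end, with a median of 0.121.

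The gene lists fell on either side in the same manner. Within the gene-rich domains the median was 0.0995 for odorant receptors, 0.106 for vomeronasal receptors, 0.114 for kallikreins, 0.137 for cytochromes P450, 0.165 for serpins and 0.257 for keratins. In contrast it was 0.870 for cytoplasmic ribosomal proteins and 0.889 for the respiratory chain. For the cohesin, CTCF and condensin list it was 0.922, over only 6 promoters. Other repeated families were higher: the numbered zinc fingers had a median of 0.627 over 160 promoters and the replication-dependent histones 0.776 over 18. The pluripotency genes were intermediate at 0.546 over 7 promoters, from 0.192 for Nanog to 0.889 for Klf2.

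Short sequence motifs were counted in the same 300 bases on both strands, as matches of letters and not as bound sites. The counts were not corrected for base composition, which differed: the median GC content was 40% in array-domain promoters and 58% in mixed-domain promoters. A sequence rich in A and T matches TATAAA more often, and whether the motif exceeded that was not tested. The TATA box (TATAAA) was present in 36.4% of array-domain promoters, 10.5% of mixed-domain promoters and 13.4% of all promoters. The GC box (GGGCGG), recognised by SP1-type factors, showed the opposite order, at 7.90%, 52.4% and 46.9%. Other motifs with a CG were also scarce in arrays. The ETS core (CCGGAA) was in 5.46% against 22.3% of mixed and 19.3% of all promoters, the E-box (CACGTG) in 2.26% against 8.34% and 8.01%, the YY1 core (ATGGCGG) in 0.941% against 7.43% and 5.49%, and the CREB core (TGACGTC) in 1.51% against 4.16% and 4.03%. The CCAAT box (CCAAT), which has no CG, differed little, at 43.7%, 39.9% and 39.6%. Mixed domains and domains of 2 to 11 genes were close for the TATA box (10.5% and 10.7%) and the GC box (52.4% and 52.2%).

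Orientation of neighbouring genes separated the same kinds. Among genes with a strand in the promoter table, consecutive genes lay on the same strand in 69.2% of 1013 pairs in array domains. The share was 51.3% of 5207 pairs in mixed domains and 50.6% in domains of 2 to 11 genes. Genes without an entry were skipped, so some of these pairs are not direct neighbours. Head-to-head pairs, divergent genes with starts at most 1000 bases apart, involved 9.98% of mixed-domain genes with a promoter, 0.470% of array-domain genes and 7.59% of all genes. Of the 658 such pairs, 269 lay inside a gene-rich domain (40.9%, against 37.3% of all protein-coding genes), with a median of 162 bases between starts, and 179 domains held at least 1. The 2 shares are not alike in their base. Only genes with a promoter could form a pair, and 6594 of those 17274 genes lay in gene-rich domains. A further 122 of the 658 pairs had a boundary interval or a change of domain between their midpoints. The Fscn2 to Metrnl domain held 5: Oxld1 with Ccdc137, Arl16 with Hgs, Alyref with Anapc11, Cenpx with Lrrc45, and Rfng with Gps1. The domain chr1:74450001-75300000 held 5 as well, among them Atg9a with Ankzf1 and Rnf25 with Stk36. In the dense domain of chromosome 14, Psme2 was paired with Rnf31, a subunit of the linear ubiquitin ligase, and Nedd8 with Gmpr2.

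RNA genes and pseudogenes followed different patterns. Per 100 kb, gene-rich domains held 0.124 miRNA genes against 0.0507 in domains of 2 to 11 genes, 0.0708 snoRNA genes against 0.0426 and 0.0400 tRNA genes against 0.00965. lncRNA genes differed less, at 0.670 against 0.619, whereas protein-coding genes were 3.28 times as dense. The tRNA genes were concentrated: 117 lay in 34 of the domains, 27 of them in chr13:21150001-21800000 and 18 in the Rnf222 to Elp5 domain. The chromosome 13 domain ran from Trim27 to H2bc22 and also held 12 replication-dependent histone genes and 9 odorant receptor genes. Array domains held fewer lncRNA and miRNA genes than mixed domains but more pseudogenes. They held 0.223 lncRNA and 0.0144 miRNA genes per 100 kb, against 0.744 and 0.143 in mixed domains, and 1.24 pseudogenes against 0.476. The domain of Vmn1r188 to Vmn1r223 held most, with 46 pseudogenes beside 37 protein-coding genes.

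Boundaries flanking gene-rich domains had a gene nearby more often than boundaries as a whole. Of the 643 boundaries that flank them, 562 (87.4%, interval 84.6% to 89.8%) had the end of a protein-coding gene inside or within 10 kb, against 64.3% of all boundaries. A start site lay there at 68.1%, against 40.1%. Genes near the edge also count towards the rule, so part of this difference comes with the choice of domains. The same measure on 25 kb windows inside the domains gives the comparison within them. Inside gene-rich domains 78.3% of windows had a gene end inside or within 10 kb, so their boundaries stood 1.12 times higher. In domains of 2 to 11 genes 42.2% of windows and 67.6% of flanking boundaries did, a ratio of 1.60. For start sites, array domains showed no higher value at the boundary, with 69.1% of boundaries against 69.6% of inner windows, whereas mixed domains had 68.5% against 58.7%.

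The density of gene ends fell from the edge inwards in mixed domains only over the first windows. It was 1.73 per 25 kb in the boundary interval, 1.89 in the first 25 kb inside and 1.34 between 175 and 200 kb. In array domains it was 1.77, 1.55 and 1.32, with 1.90 between 100 and 125 kb and no steady fall. In domains of 2 to 11 genes it fell from 0.877 at the boundary to 0.360. By relative position, the outermost 10% at either side of gene-rich domains held 22.1% of their genes, against 27.2% in domains of 2 to 11 genes. Counted over genes lying wholly inside the domain these shares were 19.8% and 20.0%. That count drops genes that cross an edge, and genes were longer in domains of 2 to 11 genes. It also leaves fewer domains at 12 genes or more (356).

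**Figure D5:**
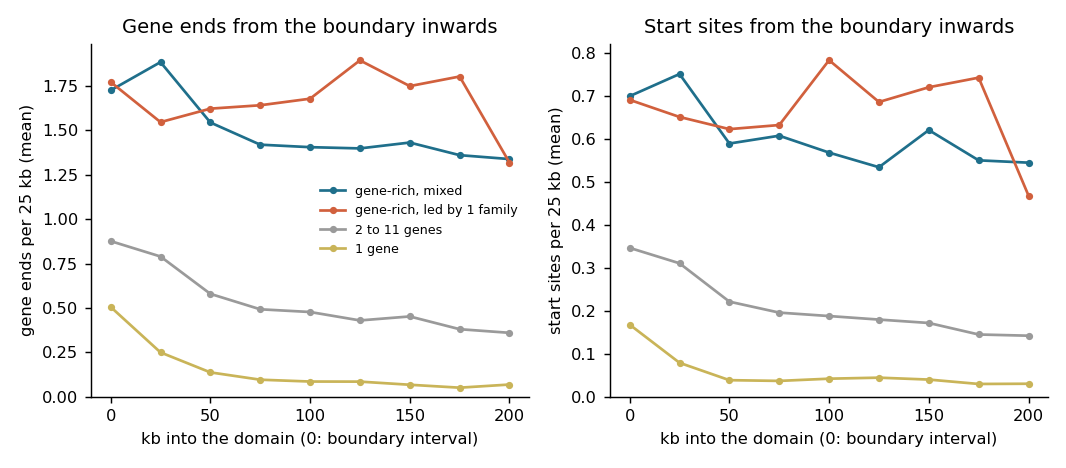
Mean number of protein-coding gene ends (left) and start sites (right) per 25 kb, against distance into the domain (kb), with the boundary interval at 0 and each later point at the far side of its window. Mixed gene-rich domains fall from 1.89 gene ends in the first 25 kb inside to 1.34 at 200 kb, and array domains show no steady fall, whereas domains of 2 to 11 genes fall from 0.877 to 0.360.

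Gene-rich domains lay next to each other. Of the 384, 201 (52.3%, interval 47.4% to 57.3%) had another as a direct neighbour, against 16.5% of the domains of 2 to 11 genes, and 125 boundaries had gene-rich domains on both sides. They formed 183 single domains, 45 runs of 2, 19 of 3, 7 of 4, 4 of 5 and 1 of 6. The run of 6, chr11:98225001-102250000, held 174 genes from Cdk12 to Hdac5. It began with unrelated genes, passed through the keratin-associated protein and keratin arrays, and then returned to mixed domains with Stat3, Kat2a and Etv4. A run of 5, chr17:33000001-36250000, held 150 genes and spanned much of the MHC with Brd2, the class II genes and Pou5f1. Another run of 5, chr7:42450001-46050000, had 154 genes and placed the kallikrein array beside the Acp4 to Lhb domain. Chromosomes differed in their share. Chromosome 11 had 39 of the domains, which held 60.2% of its located protein-coding genes, followed by chromosome 19 at 51.9%, chromosome 7 at 46.8% and chromosome 17 at 46.4%. Chromosome X was lowest at 15.4%, with 8 domains, and chromosome 13 stood at 21.8%.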

How the data were processed

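Per the submitters' processing notes, the Micro-C reads went through BWA 0.7.17 and Juicer 1.22.01, with mm10 as the genome. The deposited file holds chromosome, start and end of each boundary interval, with no score and no value per library, and all intervals were 25 kb wide. How boundaries were called (tool, window, cutoff) is not given in the sources used here, and the contact depth behind each is unknown.

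Genes came from RefSeq's GRCm38.p6 table. Genes placed along scaffolds (345, of which 110 were protein-coding) were left out, which kept 21521 protein-coding genes. Each gene was assigned to a domain by its midpoint. Strand and promoters came from RefSeq's promoter table, matched by gene identifier for 17274 of these genes, and the outermost start was used where a gene had several. Genes without an entry, such as those of chromosome 18, enter no promoter value. A family was set by the letters of the symbol before the first digit, where there were 3 or more, or by the prefix H2- of MHC genes. Models named Gm, LOC or Rik belong to none. Histone genes such as H2bc13 have too few letters before the digit and also belong to none. The members, the 27 gene lists and the measures were chosen with earlier results of these data known. Domains named were the 5 with most genes, the 5 densest, the shortest and longest, the domain richest in each list with 3 or more genes in 1 domain, and those holding pluripotency, epiblast-like, cohesin or acetyltransferase genes. The genes named in them were list genes or up to 6 by position, and exceptions are said in place.

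Shares have 95% Wilson intervals and medians order-statistic intervals, which treat genes as independent although neighbours are not. Alternatives were other gene and length limits, assignments, windows, stems and leaving out chromosome 7. The membership script was tested on simulated data and recovered 1200 of 1200 planted domains. Computations used pandas 2.3.3 and numpy 2.4.6 under Python 3.11.15, with scipy 1.17.1 for intervals and matplotlib 3.10.9 for plots. Contact maps, the other treatment groups and boundary sequences were not analysed here.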

Additional observations from a re-analysis of the deposited data

How the results depend on the processing

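No paired analysis was possible because the boundary list pools the libraries and holds no value per replicate, and no replicate could be left out for the same reason. The share of genes held (37.3%) was 34.7% for genes wholly inside, 36.6% without Gm, LOC and Rik models, 28.3% with a stem in a domain counted as 1, 42.3% and 29.9% at minimums of 10 and 15 genes, 25.6% for domains of 0.325 to 0.975 Mb, 40.1% with domains drawn to the middle of boundary intervals and 36.3% without chromosome 7. The share of genes in the outermost 10% at either side was 19.8% for genes wholly inside, and 16.3% of genes lay in the outer 50 kb, against 28.4% in domains of 2 to 11 genes. The median gene length (10.7 kb) was 10.1 kb for genes wholly inside, 12.5 kb with stems counted as 1, 11.6 and 9.80 kb at 10 and 15 genes, and 12.4 kb without odorant and vomeronasal receptors. The median observed over expected CG (0.544) was 0.525 for genes wholly inside, 0.568 without unnamed models, 0.564 at 0.325 to 0.975 Mb, 0.566 without chromosome 7 and 0.524 at the innermost start, an alternative chosen after seeing the data. It turned with stems counted as 1, to 0.662 against 0.582 in domains of 2 to 11, and for mixed domains to 0.667 there and to 0.649 against 0.644 at 15 genes. With stems counted as 1, many array domains, which are poor in CG, fall among those of 2 to 11 genes. The family-led share (13.8%) fell below that of domains of 2 to 11 genes with stems counted as 1 (0.709%). That fall is largely set by the counting, which takes most array domains out of the gene-rich group. The share was 22.1% when a stem of 33.3% of the genes sufficed. The share with a gene-rich neighbour was 46.5% with stems counted as 1 and 46.0% at 15 genes. Gene ends lay at 73.1% of flanking boundaries with no window and at 97.7% with 50 kb. The number of gene-rich domains (384) was 282 with stems counted as 1, 489 at 10 genes and 261 at 15, and the lists above the share of all genes were 12 with stems counted as 1 rather than 18 of 27. Several lists changed sides of the share of all genes. With stems counted as 1 this held for odorant receptors (5.61%), vomeronasal receptors (1.71%), protocadherins and kallikreins (0% each, since a family counted as 1 no longer makes a domain gene-rich), keratins (18.9%), cytochromes P450 (13.3%), serpins (7.94%), chemokines (15.8%) and tRNA synthetases (32.4%). Histones also changed sides there, but their symbols form no stem and were not merged. Their share stayed at 30.2% while that of all genes fell to 28.3%. At 15 genes it held for histones (30.2%), cytochromes P450 (29.6%), chemokines (26.3%) and the respiratory chain (28.1%), and at 10 genes for vomeronasal receptors (41.7%) and tRNA synthetases (47.1%). At 0.325 to 0.975 Mb it held for vomeronasal receptors (16.0%), histones (30.2%), serpins (22.2%), cytoplasmic ribosomal proteins (23.8%) and tRNA synthetases (26.5%). Domains drawn to interval middles turned vomeronasal receptors (39.7%) and tRNA synthetases (41.2%), leaving out chromosome 7 turned cytoplasmic ribosomal proteins (34.3%) and tRNA synthetases (36.7%), and leaving out unnamed models turned vomeronasal receptors (34.3%). Of the other values under the alternatives, 275 kept their direction and moved by at most 1.5 times (counts and rates) or stayed within the 95% interval (other values), and 29 single values of lists and promoters moved without turning. Boundaries are known to 25 kb and their contact depth is unknown, so a gene within 1 interval of an edge may belong to either side.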

Other observations

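Some gene-rich domains lay between the arrays and the mixed kind, with a family that made up between 33.3% and 50% of the genes. There were 32 such domains. The domain chr1:87450001-88300000 held 20 genes, 9 of them named Ugt, the glucuronosyltransferases that conjugate bilirubin and drugs, and their overlapping models share an end. The domain chr6:48450001-48975000 held 20 genes with 8 Gimap GTPases of lymphocytes, and chr5:120475001-121175000 held 21 with 9 Oas genes, sensors of double-stranded RNA. In chr1:173450001-174425000, 11 interferon-inducible Ifi genes lay beside a set of odorant receptor genes among 25 in all. These 4 domains were picked after their values had been seen.

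At the other end of gene density were members that only just met the rule over a long stretch. The sparsest, chr13:49775001-51200000, had 12 genes in 1425 kb, or 0.842 per 100 kb, most of them unnamed models, with 26 pseudogenes and 15 lncRNA genes. Its promoters had a median observed over expected CG of 0.135. The next sparsest, chr7:40300001-41650000, had 12 genes at 0.889 per 100 kb and a median of 0.0815. The domain chr13:72625001-73925000 also had 12 genes, among them the homeobox genes Irx2 and Irx4, Tert, which encodes the telomerase catalytic subunit, and 4 Slc transporter genes. The median observed over expected CG of its promoters was 0.746. A domain of 250 kb, chr17:24450001-24700000, with 15 genes including Tsc2 and Pkd1, had a median of 0.941, and the casein domain chr5:87550001-88475000, with 5 Csn milk protein genes among 17, had 0.0763. The domains of this paragraph were picked by their density or CG values.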
